A study of Mus with 8 samples.

Results

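Receptors through which myeloid cells sense GM-CSF, M-CSF, G-CSF, Flt3 ligand, IL-4 and IL-13 were followed in RNA from mouse bone-marrow monocytes held in hydrogels. The set was chosen by Ensembl gene ID and has 9 genes, Csf2ra, Csf2rb, Csf2rb2, Csf1r, Csf3r, Flt3, Il4ra, Il2rg and Il13ra1, among the 17640 IDs of the count table. All 9 passed the filter on low counts. Monocytes were taken from C57BL/6 mice of genotype Jak2 V617F Vav-iCre, which carry a mutated form of the kinase Jak2, or of genotype Vav-iCre (control). Cells were sampled at day 3 in a stiff gel, either elastic (NbTz in the titles) or viscous (VLVG in the titles), with 2 libraries in each of 4 groups: Jak2 V617F elastic, Jak2 V617F viscous, control elastic and control viscous. Every group was given IL4 at 200 ng/mL along with GM-CSF and PGE2, each at 100 ng/mL, so no group shows the receptors without those ligands. M-CSF is not among the supplements that the labels name. The Cre driver, which all groups carry, uses a promoter active in blood-forming cells. An elastic and a viscous library of the same genotype share a number at the end of their titles and are named here by its last digits, J61 and J65 for Jak2 V617F and C60 and C64 for control. The labels leave unsaid what the number marks. The p-values thus reflect variation among the 8 libraries or, on counts summed per title number, variation among the sums. Either variation may be technical.

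GM-CSF binds the alpha chain Csf2ra, which signals only together with the beta chain Csf2rb, and the beta chain carries the kinase Jak2. Csf1r, the receptor for M-CSF, and Flt3 are receptor tyrosine kinases and do not need a JAK kinase to signal. IL-4 binds Il4ra, which then pairs either with Il2rg, the common gamma chain, or with Il13ra1, a partner that also lets the complex bind IL-13. These receptors steer monocytes towards macrophage or dendritic cell fates, and Csf3r, the G-CSF receptor, is best known from neutrophils and their precursors.

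Library totals ran from 30632355 to 38408851 counts, and the 9 genes together held 0.500% to 0.633% of a library. Both libraries of C60 stood apart from the rest on the first principal component of log2 CPM (counts per 1000000 counts, scaled by TMM), with scores of 69.4 and 78.2, against −37.1 to −10.9 in the other 6. Values that C60 moves by much are also given without it. Replicates of a group were not copies of each other, and counting noise alone gives a chi-square of about 1 per degree of freedom. That of their counts was 262.4 in control elastic, 207.3 in control viscous, 107.4 in Jak2 V617F viscous and 19.1 in Jak2 V617F elastic. The tests share 1 spread per gene over these groups, so an SE within 1 genotype is not that genotype's own. The IDs carry no names in the files, and the RefSeq table given for their names, with 49997 genes, holds an Ensembl ID for 0 of them, so levels of Jak2, cell type markers and other pathway genes were not analysed here. Of the set, Csf1r is the gene that marks monocytes and their descendants, and it was at 518 CPM or more in every library. In bulk RNA, fewer cells of a type and less RNA per cell cannot be told apart.

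No receptor passed the test in any of 7 comparisons. The test was edgeR's quasi-likelihood test, and a call needed an adjusted p below 0.05 after Benjamini-Hochberg adjustment across every ID tested. edgeR called 0% of the tested IDs in each comparison. The lowest edgeR adjusted p among the 9 receptors was 0.664, for genotype in viscous gel (Csf2ra and Flt3). limma-voom likewise called 0 of the 9 receptors and 0% of IDs in each comparison. DESeq2 called 0 of the 9 too, while it called 0.787% of IDs for gel over both genotypes, 0.228% for gel in Jak2 V617F cells, 0.242% for gel in control cells and 0.0113% for the difference between those gel effects. For genotype it called 0.387% of IDs in viscous gel, 0.295% in elastic gel and 0.691% on summed counts.

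Without adjustment for the number of IDs, 1 receptor had an edgeR p below 0.05, Csf2ra for genotype in viscous gel, where 7.31% of all IDs had one. The other comparisons had 0 such receptors, and their backgrounds by edgeR were 6.28% for gel over both genotypes, 3.08% for gel in Jak2 V617F cells, 4.85% for gel in control cells, 1.72% for the difference, 4.42% for genotype in elastic gel and 5.22% on summed counts. DESeq2 gave an unadjusted p below 0.05 to Csf2ra and Flt3 for genotype in viscous gel (background 7.15%), to Csf1r and Flt3 in elastic gel (background 5.06%) and to Flt3 on summed counts (background 6.29%). It gave none to a receptor for gel over both genotypes, in Jak2 V617F cells, in control cells or for the difference, where the backgrounds were 5.86%, 2.89%, 4.39% and 1.53%.

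**Figure D1:**
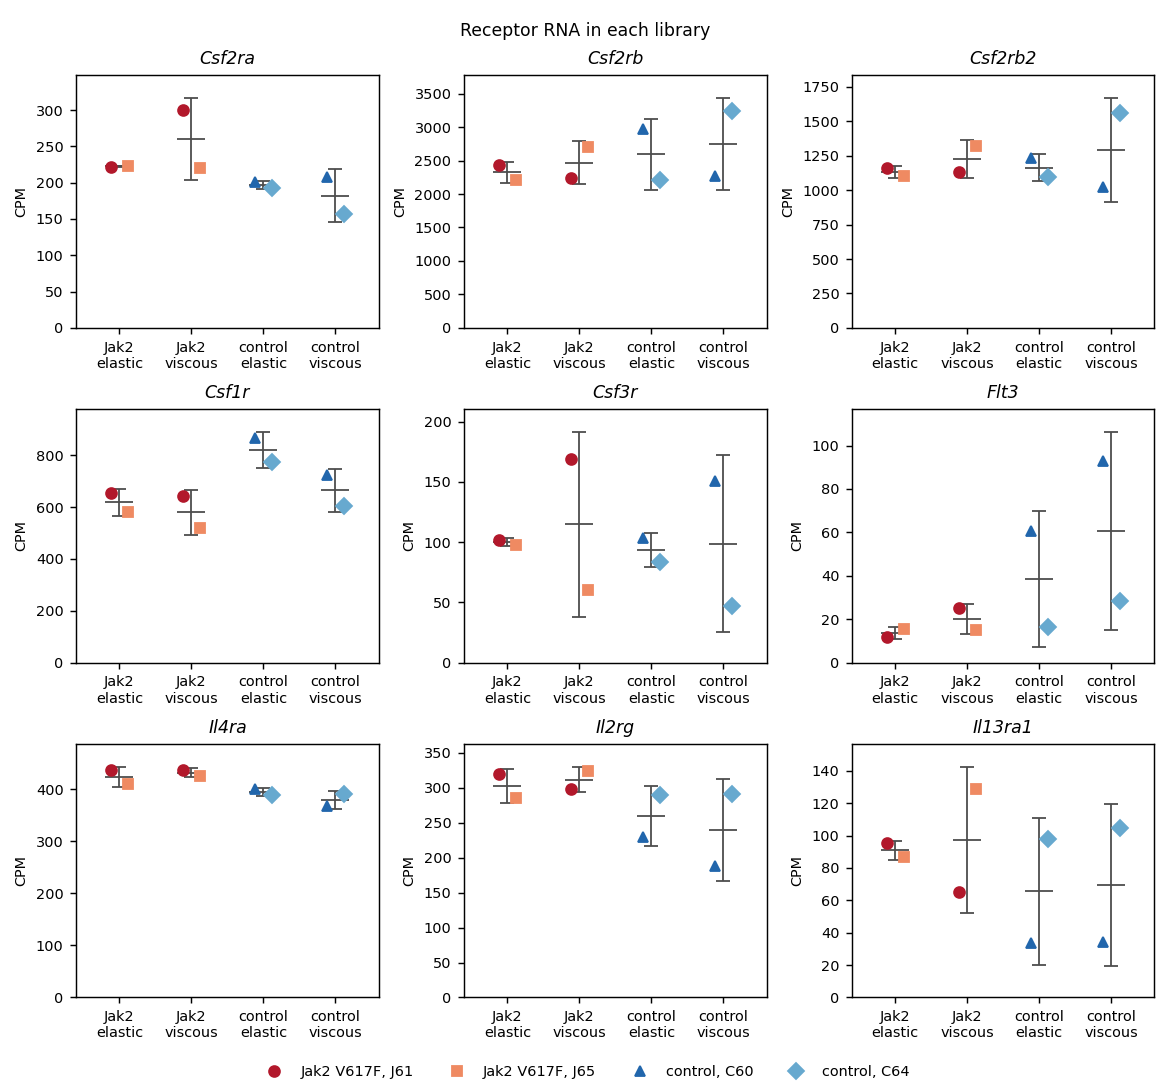
Level of each receptor gene in CPM (linear axis from 0) in the 8 libraries, by group. Points are libraries, marked by title number (J61, J65, C60, C64); bars show the mean ± SD of 2 libraries. Csf2ra and Il4ra were higher in each Jak2 V617F library than in any control library, and Flt3 stood highest in both libraries of C60.

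Csf2ra (ENSMUSG00000059326, chromosome 19), the alpha chain that binds GM-CSF, was higher in Jak2 V617F than in control libraries, by little. It had 222 and 223 CPM in Jak2 V617F elastic libraries (J61 and J65) and 301 and 221 CPM in Jak2 V617F viscous libraries. In control cells it had 200 and 192 CPM in elastic libraries (C60 and C64) and 208 and 157 CPM in viscous libraries. All 4 Jak2 V617F libraries thus lay above all 4 control libraries, though the step between the nearest libraries, 221 against 208 CPM, was small. Csf2ra and Il4ra, 2 of the 9 receptors, separated the genotypes in this direction, as did 3.5% of all tested IDs. No receptor lay lower without overlap, against 3.38% of IDs, and 6.89% of IDs separated either way. On counts summed per title number (2 sums against 2), the log2 fold change of Csf2ra was 0.37 (SE 0.16, 95% interval −0.072 to 0.81), or 1.29-fold, with an edgeR adjusted p of 0.792. It was 0.48 without C60, 0.26 without C64, 0.23 without J61 and 0.49 without J65.

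Within viscous gel Csf2ra was 1.43-fold higher in Jak2 V617F than in control cells (log2 fold change 0.52, SE 0.20), and the edgeR adjusted p was 0.664. With 1 library left out this value ran from 0.27 (without J61 in viscous gel) to 0.73 (without C60 in viscous gel). In elastic gel the log2 fold change was 0.18 (SE 0.20, adjusted p = 0.939). The highest single value, 301 CPM, was that of J61 in viscous gel. The difference between the gel effects of the genotypes was −0.34 (95% interval −1.02 to 0.35, edgeR adjusted p = 1.00), so these data do not show that the genotype difference depended on the gel.

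The beta chains, Csf2rb (ENSMUSG00000071713) and Csf2rb2 (ENSMUSG00000071714), lie next to each other. In GRCm38.p6 the RefSeq gene table places Csf2rb2 on chromosome 15, 78282507 to 78305721, and Csf2rb at 78325800 to 78351001, with 20078 bases between the gene spans. Csf2rb is the chain shared by the receptors for GM-CSF, IL-3 and IL-5, and Csf2rb2 is a second beta chain of the mouse that serves IL-3. The 2 genes are close copies, and Salmon, named in the submitters' processing notes, divides reads that match both by estimation, so their separate counts are uncertain. Csf2rb had 2434 and 2213 CPM in Jak2 V617F elastic, 2241 and 2697 in Jak2 V617F viscous, 2967 and 2215 in control elastic, and 2264 and 3239 CPM in control viscous libraries, with J61 before J65 and C60 before C64. Genotypes and gels overlapped, and the highest and lowest libraries differed 1.46-fold. Csf2rb2 had 1163 and 1099.7 CPM in Jak2 V617F elastic, 1129 and 1323 in Jak2 V617F viscous, 1232 and 1096 in control elastic, and 1023 and 1561 CPM in control viscous libraries, in the same order. Its groups overlapped too, and its highest and lowest libraries, both of them control viscous, differed 1.53-fold. For elastic against viscous gel over both genotypes the log2 fold change was −0.087 for Csf2rb (95% interval −0.57 to 0.39) and −0.13 for Csf2rb2 (95% interval −0.56 to 0.29). Without C60 these gel values were −0.32 for Csf2rb and −0.31 for Csf2rb2, and without C64 they were 0.15 and 0.071. For Jak2 V617F against control on summed counts it was −0.14 for Csf2rb (95% interval −0.70 to 0.42) and −0.042 for Csf2rb2 (95% interval −0.57 to 0.48).

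Csf2rb2 took 29.3% to 33.5% of the counts of both beta chains in the 8 libraries. Each share had a 95% Wilson interval, which covers counting error only; the lowest share ran from 29.1% to 29.6%, and the highest from 33.3% to 33.8%. The lowest share was that of C60 in elastic gel, followed by 31.1% for C60 in viscous gel, while the other 6 libraries had 32.3% or more. Over the 8 libraries the log2 CPM of the beta chains correlated (r = 0.90, rho = 0.81), which is a description, since they share libraries, title numbers and possibly reads. Over the 6 libraries without C60, r was 0.99 and rho was 0.94. Added together, the beta chains had a log2 fold change of −0.10 for elastic against viscous gel over both genotypes (SE 0.21), and −0.11 for Jak2 V617F against control on summed counts (SE 0.23). The sum was formed after the data were seen, and neither value passed the edgeR test (adjusted p = 0.983 and 0.924).

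Csf1r (ENSMUSG00000024621, chromosome 18), the M-CSF receptor, was higher in elastic than in viscous gel within each of the 4 title numbers. It had 656 and 581 CPM in Jak2 V617F elastic libraries, against 642 and 518 CPM in Jak2 V617F viscous libraries (J61 and J65). It had 869 and 773 CPM in control elastic libraries, against 723 and 606 CPM in control viscous libraries (C60 and C64). The differences were 0.031 and 0.17 log2 CPM in J61 and J65, and 0.26 and 0.35 in C60 and C64. Of all tested IDs, 10.6% were higher in elastic gel in all 4 numbers and 21.4% differed in 1 direction in all 4, and Csf1r was the only one of the 9 receptors to do so. No receptor separated all elastic from all viscous libraries, against 3.73% of IDs. With 2 libraries against 2, gels separated Csf1r in control cells (background 26.9% either way) and 0 receptors in Jak2 V617F cells (background 39.7%). Averaged over genotypes the log2 fold change was 0.20 (SE 0.14, 95% interval −0.13 to 0.53), and the edgeR adjusted p was 0.914. It was 0.22 without C60, and with single libraries left out it ran from 0.13 (without J65 in viscous gel) to 0.28 (without J61 in viscous gel). That test sets the title number aside. Fitted with the number as a block, the value was 0.20 (SE 0.10, fixed, edgeR) or 0.21 (SE 0.10, random, limma-voom). Neither block fit called Csf1r (adjusted p = 0.515 by edgeR and 0.513 by limma-voom). Without the block, the gel effect of Csf1r was 0.093 (SE 0.20) in Jak2 V617F cells and 0.30 (SE 0.20) in control cells. The difference of these effects was −0.21 (95% interval −0.88 to 0.45, edgeR adjusted p = 1.00).

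**Figure D2:**
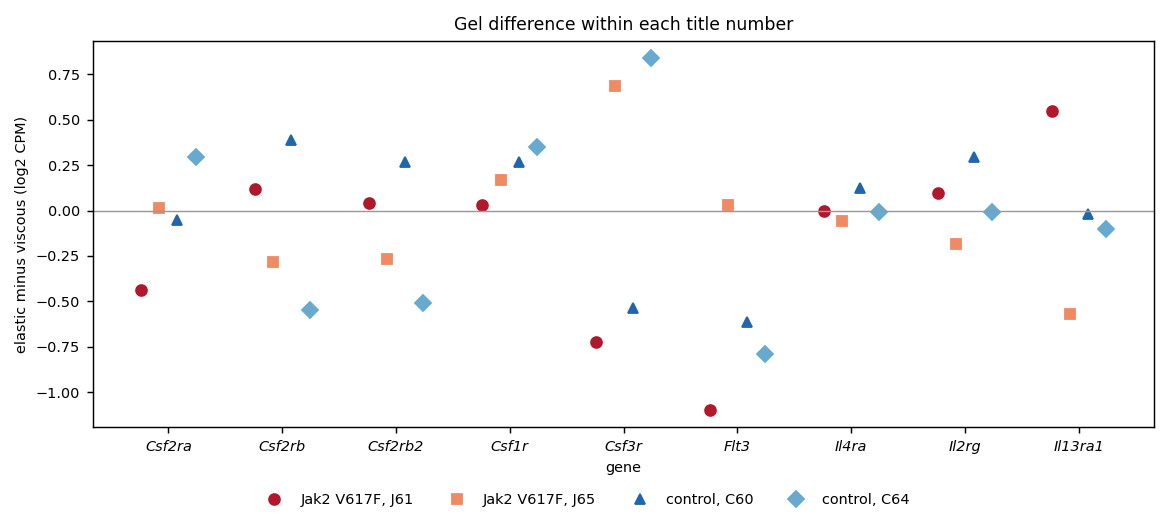
Elastic minus viscous difference of each receptor gene (log2 CPM) within each of the 4 title numbers. Points above 0 are higher in elastic gel. Csf1r was above 0 in all 4 numbers. Flt3, Il4ra and Il13ra1 were each below 0 in 3 of 4, Il4ra by little, and Csf3r was above 0 in 2 and below 0 in 2. The share of all IDs with 3 of 4 in 1 direction was not computed.

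By genotype, the Csf1r ranges overlapped: 518 to 656 CPM in Jak2 V617F libraries and 606 to 869 CPM in control libraries. In elastic gel alone they did not, with a log2 fold change of −0.41 (SE 0.20) for Jak2 V617F against control and an edgeR adjusted p of 0.937. Flt3 was the other receptor lower without overlap there, against 18.9% of all tested IDs, and Csf2ra and Il4ra were higher, against 17.2%. In viscous gel Csf2ra, Il4ra and Il2rg were higher without overlap, against 18.6% of IDs, and Flt3 was lower, against 19% of IDs. In viscous gel the log2 fold change of Csf1r was −0.20 (SE 0.20, adjusted p = 0.795), or −0.062 without C60 and −0.039 without J65. On summed counts it was −0.30 (SE 0.18, 95% interval −0.79 to 0.20, adjusted p = 0.795), or −0.39 without C64, −0.20 without C60, −0.43 without J61 and −0.18 without J65.

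The count ratio of Csf1r to Csf2ra separated the genotypes in both gels. It was 2.96 and 2.60 in Jak2 V617F elastic libraries (J61 and J65), against 4.34 and 4.02 in control elastic libraries (C60 and C64). In viscous gel it was 2.14 and 2.35 in Jak2 V617F libraries, against 3.48 and 3.87 in control libraries. The ratio does not depend on how libraries are scaled. It was formed after the values of both genes were seen, so its separation adds no support to theirs, and it gets no test. The share of all gene pairs whose ratio separates the genotypes was not computed. The other ratios formed overlapped between genotypes. Csf2ra over Csf2rb was 0.082 to 0.134 in Jak2 V617F and 0.048 to 0.092 in control libraries. Il4ra over Il2rg was 1.31 to 1.46 in Jak2 V617F and 1.34 to 1.96 in control libraries. Counts are not corrected for gene length, so the ratio compares libraries and does not say which RNA was the more abundant.

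**Figure D3:**
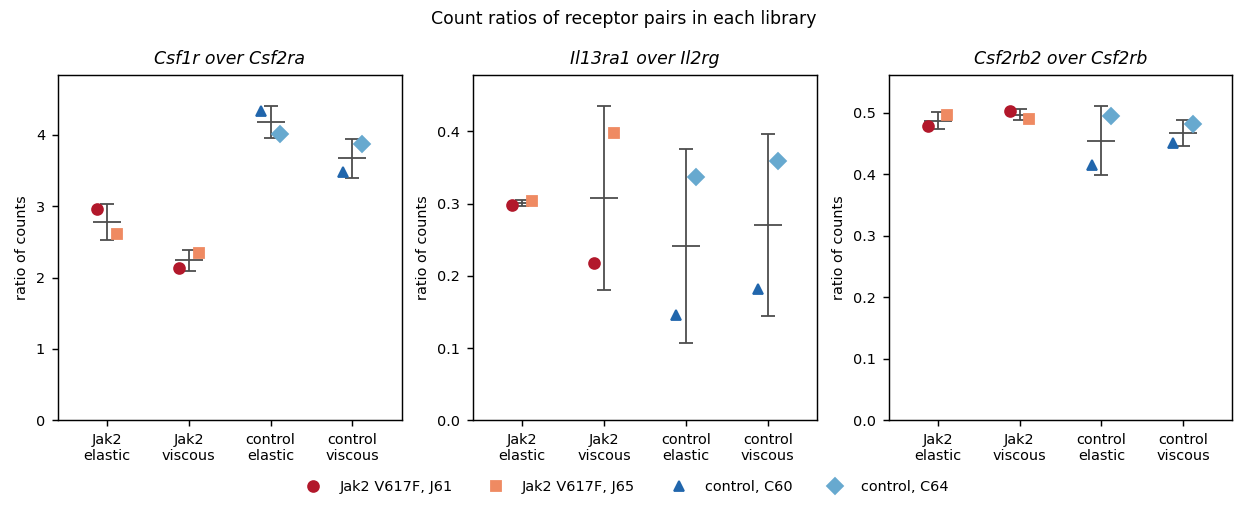
Count ratios of 3 receptor pairs (linear axis from 0) in the 8 libraries, by group. Points are libraries, marked by title number (J61, J65, C60, C64); bars show the mean ± SD of 2 libraries. Csf1r over Csf2ra lay between 2.14 and 2.96 in Jak2 V617F libraries and between 3.48 and 4.34 in control libraries, while Il13ra1 over Il2rg was lowest in C60.

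Flt3 (ENSMUSG00000042817, chromosome 5), the receptor of a ligand that supports dendritic cell precursors, had the widest range of the 9 genes, 7.93-fold between the lowest and the highest library. It had 11.7 and 15.4 CPM in Jak2 V617F elastic, 25.1 and 15.1 in Jak2 V617F viscous, 60.6 and 16.5 in control elastic, and 92.8 and 28.5 CPM in control viscous libraries, with J61 before J65 and C60 before C64. Both libraries of C60 were far above the other 6, and its mean difference from C64 was 1.79 log2 CPM, or 3.45-fold. Between these control numbers 94.5% of tested IDs differed by less.

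On summed counts Flt3 was 2.92-fold lower in Jak2 V617F than in control cells (log2 fold change −1.55, SE 0.62, 95% interval −3.22 to 0.13), with an edgeR adjusted p of 0.792. The size of this difference rested on C60: it was −0.40 without that number (adjusted p = 0.40) and −2.18 without C64 (adjusted p = 0.00391). Without C64, however, edgeR called 15.8% of all IDs on summed counts. Within the gels the log2 fold changes were −1.51 in elastic (SE 0.74, adjusted p = 0.937) and −1.59 in viscous (SE 0.74, adjusted p = 0.664). Without C64, when C60 alone stood for control cells, Flt3 passed the edgeR test in both gels (adjusted p = 0.0202 in elastic and 0.0265 in viscous), as did 8.05% of all IDs in elastic and 5.3% in viscous gel. Without C60 it did not (adjusted p = 0.988 and 0.539), and the log2 fold changes were −0.28 and −0.50.

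Between gels, Flt3 was lower in elastic than in viscous gel in 3 of 4 title numbers. Il4ra and Il13ra1 also had 3 of 4 differences below 0, without a clear direction. Those of Il4ra were at most 0.058 log2 CPM below 0, and it was 0.12 above 0 in C60. Il13ra1 ran from −0.57 in J65 to 0.55 in J61. The share of all IDs with 3 of 4 in 1 direction was not computed. The differences of Flt3 were −1.10 and 0.030 log2 CPM in J61 and J65, and −0.61 and −0.79 in C60 and C64. The averaged log2 fold change was −0.61 (SE 0.51, 95% interval −1.84 to 0.62), or 1.53-fold lower, and the edgeR adjusted p was 0.934. Without C60 it was −0.68. C60 was far above C64 in both gels, so leaving out only 1 of its libraries moved the value further. It was then −0.067 (viscous library left out) or −1.22 (elastic library left out). With the title number as a block it was −0.62 (SE 0.19, fixed, edgeR) or −0.63 (SE 0.39, random, limma-voom). Neither block fit called Flt3 (adjusted p = 0.311 and 0.592). Without the block, the gel effect was −0.57 (SE 0.73) in Jak2 V617F and −0.65 (SE 0.72) in control cells. The difference of these effects was 0.085 (95% interval −2.38 to 2.55, adjusted p = 1.00). That interval is the widest of the 9 receptors for this difference. It comes from a fit that sets the title number aside, so the level difference between C60 and C64 adds to its width. This fit says little on whether the genotypes differed in their response to the gel.

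Csf3r (ENSMUSG00000028859, chromosome 4), the G-CSF receptor, had no steady direction. It had 102 and 97.7 CPM in Jak2 V617F elastic, 169 and 60.7 in Jak2 V617F viscous, 104 and 83.8 in control elastic, and 151 and 46.8 CPM in control viscous libraries, with J61 before J65 and C60 before C64. In viscous gel J61 and C60 were thus high and J65 and C64 low, whichever the genotype, while the elastic libraries lay closer together. The gel difference was accordingly negative in J61 and C60 (−0.72 and −0.54 log2 CPM) and positive in J65 and C64 (0.69 and 0.84). The log2 fold change averaged over genotypes was −0.14 (SE 0.44, edgeR adjusted p = 0.987), and that for genotype on summed counts was 0.16 (SE 0.44, adjusted p = 0.939). Without C60 these values were 0.32 for gel and 0.73 for genotype, and without C64 they were −0.37 and −0.24. Over the 8 libraries Csf3r and Csf2rb2 ran opposite to each other (r = −0.83, rho = −0.52), as a description. Without C60, over 6 libraries, r was −0.80. This r was among the lowest of all receptor pairs, but the pair was not alone. Csf3r also ran against Il13ra1 (r = −0.66, rho = −0.86) and with Csf2ra (r = 0.73, rho = 0.55). For these pairs r was −0.86 and 0.89 without C60.

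The chains of the IL-4 receptor differed in how far they varied. Il4ra (ENSMUSG00000030748, chromosome 7), the chain that binds IL-4, was the steadiest of the 9 genes. It had 436 and 409 CPM in Jak2 V617F elastic, 437 and 426 in Jak2 V617F viscous, 400 and 389 in control elastic, and 367 and 391 CPM in control viscous libraries, with J61 before J65 and C60 before C64. Like Csf2ra it lay higher in each Jak2 V617F library than in any control library, by a narrow step of 409 against 400 CPM. Its log2 fold change on summed counts was 0.16 (SE 0.14, 95% interval −0.21 to 0.52), or 1.11-fold, and the edgeR adjusted p was 0.830. Its SD within groups was 0.050 log2 CPM, and 1.33% of tested IDs had a smaller one. Between gels the log2 fold change of Il4ra was 0.014 (SE 0.10, 95% interval −0.22 to 0.25, adjusted p = 0.996).

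Il2rg (ENSMUSG00000031304, chromosome X), the common gamma chain, had 320 and 286 CPM in Jak2 V617F elastic, 299 and 324 in Jak2 V617F viscous, 230 and 290 in control elastic, and 188 and 292 CPM in control viscous libraries, with J61 before J65 and C60 before C64. The 2 lowest libraries were those of C60, and C64 lay within the Jak2 V617F range. On summed counts the log2 fold change for Jak2 V617F against control was 0.31 (SE 0.21, edgeR adjusted p = 0.801). It was 0.082 without C60 (adjusted p = 0.752) and 0.59 without C64 (adjusted p = 0.0342), where 15.8% of all IDs were called. Between gels it was 0.037 (SE 0.17, adjusted p = 0.993).

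Il13ra1 (ENSMUSG00000017057, chromosome X), the partner shared with IL-13, was lowest in the same 2 libraries. It had 95.2 and 86.9 CPM in Jak2 V617F elastic, 65.2 and 129 in Jak2 V617F viscous, 33.6 and 97.6 in control elastic, and 34.0 and 105 CPM in control viscous libraries, with J61 before J65 and C60 before C64. C60 was 2.99-fold below C64 on average, and 93.0% of tested IDs differed by less between the control numbers. The log2 fold change of Jak2 V617F against control on summed counts was 0.49 (SE 0.56, edgeR adjusted p = 0.857). Without C60 its sign turned, to −0.10 (adjusted p = 0.839), and without C64 it was 1.49 (adjusted p = 0.0180), again with 15.8% of all IDs called. Between gels the averaged value was −0.087 (SE 0.47, adjusted p = 0.995), with a 95% interval of −1.22 to 1.04.

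**Figure D4:**
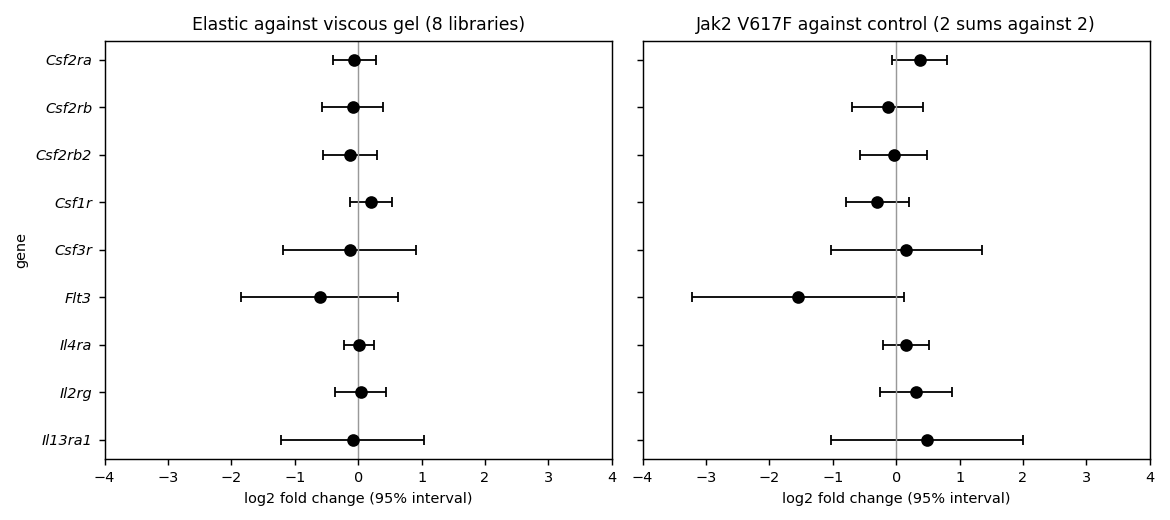
Log2 fold change of each receptor gene with its 95% interval, for elastic against viscous gel averaged over genotypes (left, 8 libraries) and for Jak2 V617F against control on counts summed per title number (right, 2 sums against 2). Every interval includes 0; those of Flt3, Il13ra1 and Csf3r were the widest, and that of Il4ra the narrowest.

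The count ratio of Il13ra1 to Il2rg, the alternative partners of Il4ra, was lowest in C60 and overlapped between genotypes and gels. It was 0.298 and 0.304 in Jak2 V617F elastic, 0.218 and 0.398 in Jak2 V617F viscous, 0.146 and 0.337 in control elastic, and 0.181 and 0.359 in control viscous libraries, with J61 before J65 and C60 before C64. In viscous gel J65 was the highest and J61 the lowest apart from C60, whereas in elastic gel both Jak2 V617F values were close. Over the 8 libraries Il2rg and Il13ra1 correlated (r = 0.90, rho = 0.71), and Flt3 ran against both (r = −0.93 and −0.89). Over the 6 libraries without C60, r was 0.43 for Il2rg with Il13ra1, −0.49 for Flt3 with Il2rg and −0.33 for Flt3 with Il13ra1. These correlations are descriptions over libraries that share title numbers.

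Over the whole set, the median log2 fold change for elastic against viscous gel was −0.087 over the 9 receptors and −0.0043 over all 14785 IDs tested. For Jak2 V617F against control on summed counts it was 0.16 over the receptors, of which 5 were above 0 and 4 below, and −0.0049 over 15239 IDs. Spread within groups divided the set. Flt3, Il13ra1 and Csf3r had SDs of 0.94, 0.86 and 0.80 log2 CPM, against 0.26 for the median ID, while the other 6 lay between 0.050 and 0.26. For these 3 genes the 95% intervals for gel over both genotypes reached −1.18 or lower, whereas those of the other 6 lay between −0.57 and 0.53.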

How the data were processed

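RNA was sequenced from 8 libraries. The authors deposited raw whole-number counts for each Ensembl ID, in 1 series table and 8 per-library files that were checked to hold the same values. Salmon, DESeq2 and GRCm38 are named in the submitters' processing notes; their versions, how transcripts were merged into genes and the use of strand are not given in the sources used here. Every ID had at least 10 counts over the 8 libraries.

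The main tool was edgeR 4.0.16 (R 4.3.3): filterByExpr by group, TMM, and a quasi-likelihood fit of 4 group means to 8 libraries that share 1 spread per gene. Genotype over both gels was tested on counts summed per title number. Tests were two-sided. The log2 CPM values used a prior count of 2. limma 3.58.1 and DESeq2 1.42.0 were alternatives, beside other filters and scalings, a replicate block and libraries left out. Only edgeR, limma-voom and DESeq2 in their default settings were run on simulated data, and not for every comparison. The other filters and scalings, the block and the fits with libraries left out were not. Gene locations come from RefSeq (GRCm38.p6), matched by symbol for all 9 genes. The rule was to name all 9 genes. The genes, the tests and 16 further gene lists were chosen with earlier results of these data known; the lists could not be matched to IDs and were not analysed. Groups come from the labels. Libraries with the same title number deviated from their group means with a correlation of −0.089 in Jak2 V617F cells and 0.53 in control cells. The random block fit estimated a correlation of 0.381 within a title number. These values do not show that the number can be ignored, least of all in control cells. The labels leave unsaid what the number marks, and the main gel tests treat libraries as unpaired. Fits with the number as a block are given as alternatives. Figures were drawn with matplotlib 3.10.9.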

Additional observations from a re-analysis of the deposited data

How the results depend on the processing

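Each group had 2 libraries, so leaving out a library leaves a group with 1, assumed to vary like the rest. The receptors called stayed at 0 in 128 of 131 alternative counts; the others, all without both libraries of C64, were 1 in viscous gel, 1 in elastic gel and 3 on summed counts (0 to 1, 0 to 1 and 0 to 3 with libraries left out). Of all IDs, edgeR called 0 in each comparison. DESeq2 called 128 for gel over both genotypes, 34 in Jak2 V617F and 36 in control cells, 2 for the difference of those effects, 59 for genotype in viscous gel, 46 in elastic gel and 110 on summed counts. For gel over both genotypes edgeR called 1 without a filter and 1 with the stricter filter (50 counts in 2 libraries); it called 1 for gel on the 4 Jak2 V617F libraries alone, and 2 for genotype averaged over 8 libraries. With libraries left out, the ranges were 0 to 2 for gel over both genotypes, 0 to 1 in each genotype, 0 to 784 for genotype in viscous gel, 0 to 1190 in elastic gel and 0 to 2403 on summed counts, where the highest count was again without C64.

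With the title number as a replicate block, 5 IDs (fixed, edgeR) and 2 (random, limma-voom) were called for gel over both genotypes and 1 (random) in control cells, and 0 of the 9 receptors in each. The gel value of Csf3r was 0.062 with the fixed and 0.072 with the random replicate block, and 0.072 by limma-voom, against −0.14. The block changed no other sign among the log2 fold changes refitted with it.

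Of 581 alternative values of the log2 fold changes, 530 kept their sign and side of the threshold, 5 passed it and 46 had the other sign. With libraries left out, the gel values over both genotypes ran from −0.16 to 0.062 for Csf2ra, −0.32 to 0.15 for Csf2rb, −0.31 to 0.071 for Csf2rb2, −0.44 to 0.40 for Csf3r, 0.13 to 0.28 for Csf1r, −1.22 to −0.067 for Flt3, −0.019 to 0.042 for Il4ra, −0.10 to 0.21 for Il2rg and −0.57 to 0.43 for Il13ra1. Those for genotype on summed counts ran from −0.17 to 0.094 for Csf2rb2, −0.32 to 0.73 for Csf3r and −0.10 to 1.49 for Il13ra1. The gel value of Flt3 ran from −1.09 to 0.030 in Jak2 V617F and from −1.88 to 0.44 in control cells, and its difference between genotypes from −1.003 to 1.31. That of Csf2ra ran from −0.44 to 0.016 in Jak2 V617F and from −0.083 to 0.33 in control cells, and that of Csf1r from −0.054 to 0.26 in Jak2 V617F cells. The causes were not tested. Under the other scalings tried, the median over every ID shifted by no more than 0.022 log2 units.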
